A study of Drosophila melanogaster with 10 samples.

Results

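The genes described here are CG15209, CG3635, CG34411, CG30076, CG32944, CG32816, CG11866 and CG8607, which the deposited gene tables list by annotation number alone. They were chosen by their RNA levels (RPKM) in these same libraries, as genes higher than control in each of 5 knock-downs of ovarian somatic cells (OSC), a cultured Drosophila line from the somatic cells of the ovary. All 8 were found, each in 1 row of the tables, among 13984 gene names, of which 7690 had a mean of at least 1 RPKM over the RNA libraries and were compared. RPKM is the number of reads per kilobase of transcript, scaled to the library's total reads. The 6 poly(A) RNA libraries came from OSC transfected with siRNAs against EGFP, which is the control, or against Piwi, Armi, Mael, CG3893 or HP1a, and collected 2 days later. The control cells therefore went through the same transfection, and each group was 1 library of 1 cell line. With 1 library per group no difference had a replicate check and no p-value is given. RNA polymerase II libraries of the same study hold values for transposable element (TE) families and none for genes, and were not used here.

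In these cells the nuclear protein Piwi is loaded with small RNAs, the piRNAs, in a step that needs the RNA helicase Armi. Loaded Piwi then silences transposons in chromatin, together with Mael and the zinc finger protein CG3893, listed as arx in the RefSeq annotation of release 6. HP1a binds the methylated histone H3 of silent chromatin. A gene that lies beside a silenced transposon can be held down with it, and such a gene can change when the pathway is lost. Transposon insertions near the 8 genes were not examined here.

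The label of uncharacterised genes held for 6 of the 8. In release 6 CG34411 carries the symbol Lgr4, for a G protein-coupled receptor with leucine-rich repeats, of the same family as the mammalian relaxin receptors. CG11866 carries the symbol dmpd, with FBXO13 as a synonym, a name for F-box proteins. The other 6 have no symbol beyond their number there, and all 8 are listed as protein-coding. Of the 6, CG3635 belongs to the acid lipases and CG32944 to the serine/threonine kinases by general knowledge of fly gene families; the tables used here state no function for them.

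The genes lay apart from each other on 5 chromosome arms of build dm3, with coordinates as the files give them. CG15209 (X, 10736187 to 10737028), CG34411 (X, 13055746 to 13083197) and CG32816 (X, 210608 to 364670) were on the X chromosome. CG30076 (10431941 to 10433264) and CG11866 (6005197 to 6008956) were on 2R, CG3635 (22175414 to 22183992) on 2L, CG8607 (7313169 to 7314248) on 3L and CG32944 (233158 to 241835) on 3R. No member was on chromosome 4. CG32944 started 233 kb from the first listed locus of 3R and CG3635 ended 777 kb before the last listed locus of 2L, which are the ends of these arms nearest to the centromere. CG32816 lay at the tip of the X, 189.8 kb from its first listed locus. The loci ran from 0.841 kb for CG15209 to 154 kb for CG32816.

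Control cells held little RNA of most of these genes. CG32944, CG34411, CG11866 and CG32816 were under 1 RPKM in the control, at levels exceeding those of 0.6%, 1.1%, 1.4% and 1.5% of the compared genes. These 4 entered the comparison through their knock-down libraries. CG15209, CG30076 and CG3635 stood above 5.8%, 9.2% and 21.0% of the genes. CG8607 was different, with a control level above 64.3% of the genes.

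The scale behind these values was read from the steps of low values, which are whole numbers of reads for most low entries. The totals, to 3 digits, were 35200000 reads for the control and 37900000, 23000000, 26100000, 32500000 and 19100000 reads for Piwi, Armi, Mael, CG3893 and HP1a. At the control total, CG32944 had 4.59 reads per kilobase of transcript and CG34411 had 18.7. If its whole locus were exon, the control value of CG32944 would rest on at most 38.9 reads, and that of CG15209 on at most 40.1, so the ratios of these genes to control are coarse. Read numbers of the 8 genes themselves were not derived, so no counting intervals are printed for them.

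CG15209 had 1.78 RPKM in the control, and 35.4, 14.2, 37.6, 19.2 and 40.2 RPKM when Piwi, Armi, Mael, CG3893 and HP1a were depleted. The Piwi, Mael and HP1a libraries were close to each other and about level, while Armi and CG3893 lay lower. Each knock-down was above the control, as the choice of the gene required. The ratios to control were 19.9, 7.97, 21.1, 10.8 and 22.6 in that order of knock-downs. In rank, the gene went from above 5.8% of genes in the control to above 68.6% in HP1a.

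CG3635 had 8.33 RPKM in the control, and 79.4, 44.1, 106, 47.1 and 45.4 RPKM when Piwi, Armi, Mael, CG3893 and HP1a were depleted. Mael and Piwi were high, and Armi, CG3893 and HP1a sat together at a lower level that was still 5.29-fold to 5.66-fold above control. The ratio was 9.53 in Piwi and 12.7 in Mael. HP1a was thus among the low knock-downs for this gene.

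CG34411, the receptor gene Lgr4 of release 6, had 0.53 RPKM in the control, and 9.19, 4.43, 19.1, 5.14 and 16.3 RPKM when Piwi, Armi, Mael, CG3893 and HP1a were depleted. Mael and HP1a were high, Piwi lay between, and Armi and CG3893 were low. The ratios were 17.2, 8.31, 35.8, 9.65 and 30.6. CG11866, listed as dmpd in release 6, had 0.67 RPKM in the control, and 6.77, 3.94, 17.8, 5.71 and 18.6 RPKM when Piwi, Armi, Mael, CG3893 and HP1a were depleted. Its Mael and HP1a libraries were nearly equal and stood well above the other knock-downs. The ratios were 10.1, 5.85, 26.4, 8.49 and 27.6.

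CG32944, the kinase-family gene, had 0.13 RPKM in the control, and 4.93, 2.02, 7.78, 2.097 and 6.76 RPKM when Piwi, Armi, Mael, CG3893 and HP1a were depleted. Its level stayed low in every library, yet its ratios were the highest of the 8 genes, at 37.8, 15.5, 59.6, 16.1 and 51.8, over a control value of few reads. CG32816 had 0.70 RPKM in the control, and 8.66, 3.42, 11.5, 4.80 and 7.05 RPKM when Piwi, Armi, Mael, CG3893 and HP1a were depleted. Mael and Piwi were high, HP1a came next, and the ratios ran from 4.86 in Armi to 16.3 in Mael.

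CG30076 had 2.86 RPKM in the control, and 19.7, 7.09, 34.0, 13.8 and 27.0 RPKM when Piwi, Armi, Mael, CG3893 and HP1a were depleted. Armi was close to the limit used here, at 2.47-fold above control, against 11.9-fold in Mael. CG8607 had 37.2 RPKM in the control, and 196, 140.1, 139, 82.5 and 229 RPKM when Piwi, Armi, Mael, CG3893 and HP1a were depleted. It was the most abundant of the 8 in each library and had the smallest ratio of the 8 in Piwi (5.29), Mael (3.75) and CG3893 (2.22), with 3.77 in Armi and 6.18 in HP1a. Its order also differed, with HP1a and Piwi high, Armi and Mael level, and CG3893 lowest.

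**Figure D1:**
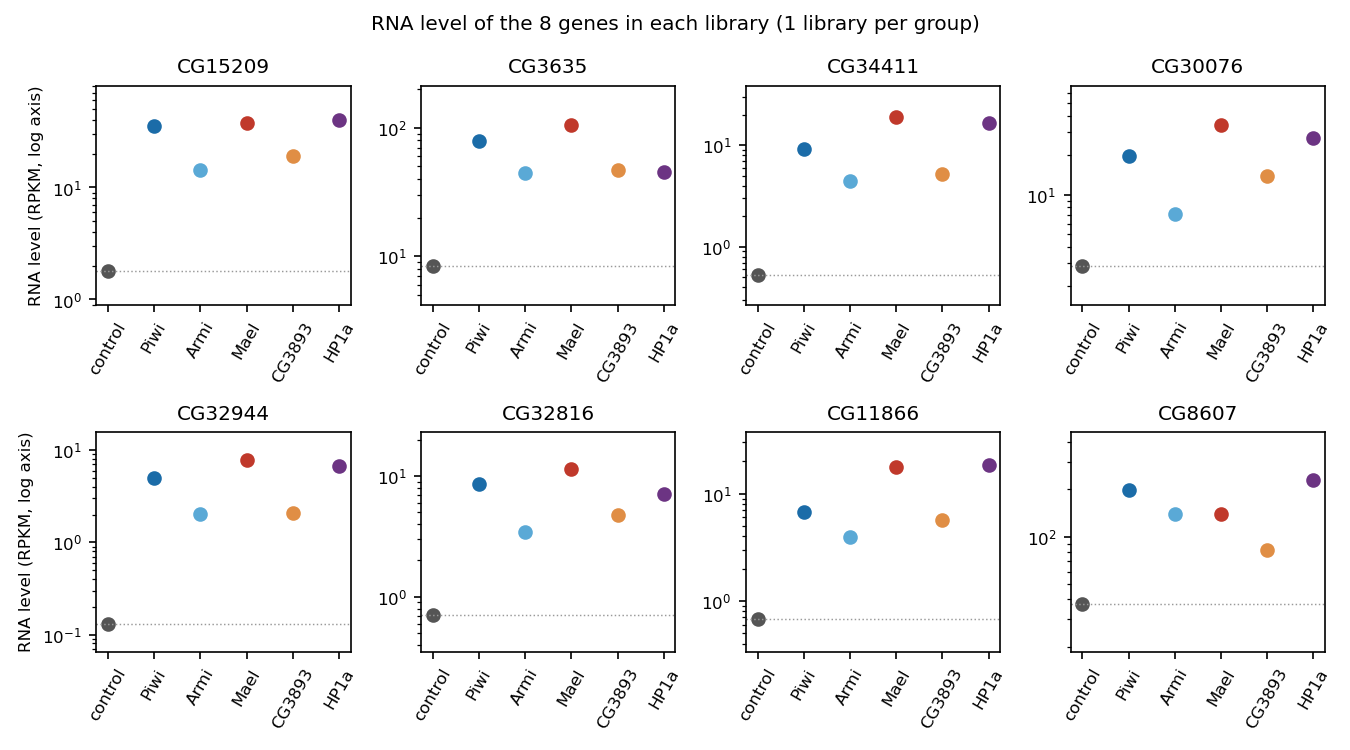
RNA level of each of the 8 genes in the control and the 5 knock-down libraries, on log axes in RPKM with 1 point per library; the dotted line is the control level. Every knock-down point lies above the control, the closest being CG8607 in CG3893, at 82.5 against 37.2 RPKM.

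As a call, a gene was counted when log2((knock-down + 1)/(control + 1)), in RPKM, was at least 1, which is 2-fold after a pseudocount that understates changes of low genes. All 8 genes were past this limit in each knock-down. They were chosen as higher than control in these same comparisons, so this count is a description only. Among the 7690 compared genes the share past 2-fold higher was 1.56%, 0.975%, 2.42%, 1.01% and 3.85% for Piwi, Armi, Mael, CG3893 and HP1a. These 5 comparisons share 1 control library, and a value low there alone raises each of them. The control was the lowest of the 6 libraries for 1250 of the 7690 genes, 16.3%. On this scale the median change of the 8 was 2.46, 1.69, 3.33, 1.97 and 2.82 for Piwi, Armi, Mael, CG3893 and HP1a, while the medians of all compared genes lay between -0.08 and -0.02.

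In all, 29 genes, 0.377%, were past 2-fold higher in each of the 5 knock-downs. The members were 8 of these 29, and not the only ones with a number for a name: CG13038, CG9837, CG30104, CG11459, CG40733, CG42565, CG15314 and CG32850 met the same limit. By the lowest of the 5 changes, CG15209 was 3rd of all compared genes, CG3635 6th, CG34411 9th, CG11866 10th, CG32944 12th, CG32816 14th, CG8607 22nd and CG30076 27th. This order rests on the pseudocount: with 0.1 RPKM, CG32944 led the members at rank 5 with a lowest change of 3.202, and with 5 RPKM CG3635 led at rank 1 with 1.88 and CG32944 was at rank 60. Just inside the limit were CG30076, whose lowest change was 1.06 in Armi, and CG8607, at 1.13 in CG3893. Just outside it were Hsp67Bb at 0.999, CG14629 at 0.998 and the cell adhesion gene Fas2 at 0.98.

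**Figure D2:**
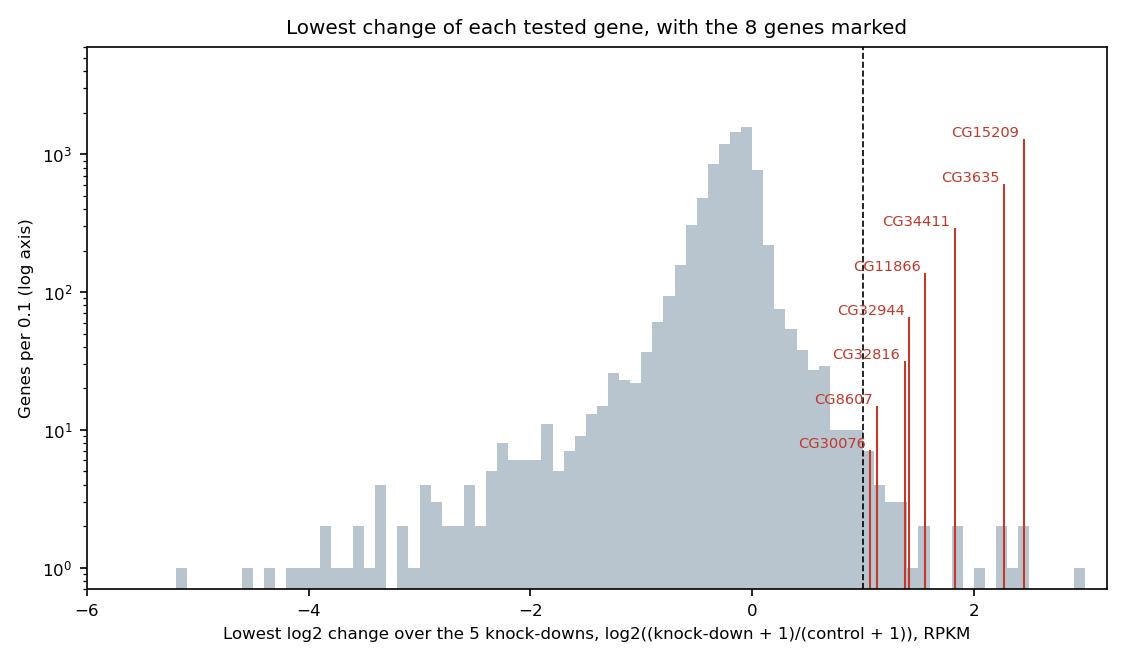
Number of compared genes, on a log axis, by the lowest of their 5 log2 changes; the dashed line is the 2-fold limit and red lines mark the 8 genes. They lie between 1.06 for CG30076 and 2.45 for CG15209, among the 29 genes past the limit.

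Genes named by number alone were then counted as a class. Without the members, 3834 such genes were compared, and the shares past 2-fold higher were 1.41%, 0.782%, 2.27%, 0.626% and 3.26% for Piwi, Armi, Mael, CG3893 and HP1a. Of the 3848 other genes, the shares past 2-fold higher were 1.51%, 0.962%, 2.36%, 1.2% and 4.24%. The 8 members, chosen as raised, were left out of the first class only. That lowers its shares, so the classes are not a like comparison. Among the genes named by number, the largest mean changes outside the 8 members were those of CG12016 and CG14686. Neither was past the limit in Armi. CG12016 was at 0.00053 RPKM in the control, 0.00109 RPKM in Armi and 20.1 RPKM in Mael. CG14686 was at 0.107 RPKM in the control, 0.98 RPKM in Armi and 42.7 RPKM in Mael. It was higher than control in each knock-down, and missed the limit in Armi on the log2(RPKM + 1) scale.

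Relatives of CG3635 and CG32944 were next counted in lists of their families. Of 22 acid lipase genes, 21 were found, and only CG18530 reached a mean of 1 RPKM; its level was 1.35 RPKM in control cells and 0.82 to 2.05 RPKM elsewhere, past 2-fold in none. The other 20 found had means under 1 RPKM, against 8.33 RPKM for CG3635 in the control. Of 24 kinase genes of the AGC group, to which CG32944 is related, 19 were compared. Of these, 0 were past 2-fold higher in any knock-down, against 0.975% to 3.85% of all compared genes. A list of 19 is too short to tell 0 from such shares. In HP1a 1 of the 19 was past 2-fold lower, as were 1.9% of all genes. That gene was Pkc53E, a protein kinase C gene, at 5.61 RPKM in the control and 1.45 in HP1a, and the median change of the list was between -0.02 and 0.02. Pkc98E, a further protein kinase C gene, had 12.7 RPKM in control cells and 10.5 to 12.3 RPKM elsewhere.

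The knock-downs were next compared with each other, a difference that the choice of the genes did not name, although it used the same libraries. For 5 of the 8 genes the level was highest in Mael, and for the other 3 in HP1a, while Armi was lowest for 7 and CG3893 for 1. Among the 21 other genes past 2-fold in every knock-down, Mael was highest for 10 and HP1a for 8, and Armi was lowest for 10 and CG3893 for 8.

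The 4 comparisons with Piwi share the Piwi library. Against it, the Armi library was lower for each of the 8 genes, from 0.36-fold for CG30076 to 0.71-fold for CG8607. On the log2(RPKM + 1) scale 3 of them were past 2-fold lower, where 0.533% of all genes were. CG34411, at 0.48-fold, and CG32944, at 0.41-fold, were past it only as plain ratios. CG3893 was also lower than Piwi for each of the 8, from 0.42-fold for CG8607 to 0.84-fold for CG11866. CG8607 was past 2-fold on that scale, against 0.442% of all genes, and CG32944, at 0.425-fold, only as a plain ratio. Mael was higher than Piwi for 7 of the 8, led by CG11866 at 2.62-fold, the only 1 past 2-fold on the log2(RPKM + 1) scale, against 1.08% of all genes. CG8607 was the exception at 0.71-fold. HP1a was higher than Piwi for 6 of the 8 and lower for CG3635, at 0.57-fold, and CG32816, at 0.81-fold; CG11866, at 2.74-fold, was past 2-fold, as were 2.56% of all genes.

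Mael exceeded CG3893 for each of the 8 genes, from 1.69-fold for CG8607 to 3.71-fold for CG34411 and CG32944. Of the 8, 6 were past 2-fold, against 1.3% of all genes. Most of the 21 other genes past 2-fold in every knock-down also had this difference. Cda5, for example, was at 39.3 RPKM in Mael and 8.71 RPKM in CG3893. Some did not, such as snoRNA:Psi28S-2149, at 7.68 and 12.3 RPKM. The difference was thus not particular to the 8. The HP1a and Mael libraries differed by less than 2-fold for 7 genes and more for CG3635, which was at 0.43-fold in HP1a. In that direction 1.42% of all genes were past 2-fold.

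**Figure D3:**
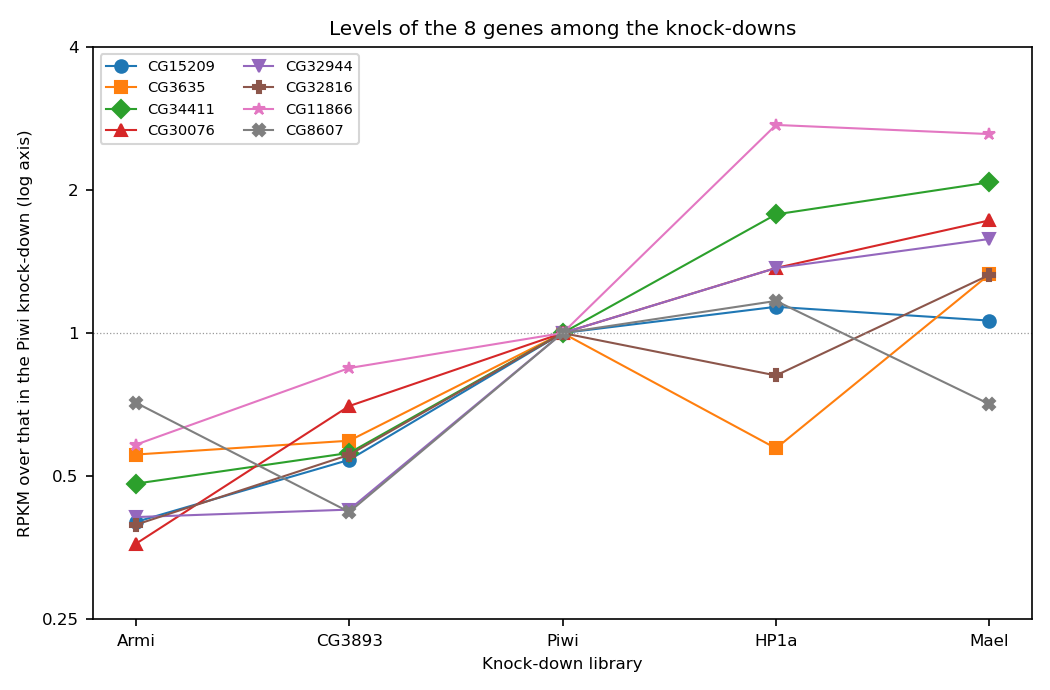
Level of each of the 8 genes in the 5 knock-down libraries, divided by its level in the Piwi knock-down, on a log axis with 1 point per library. Armi and CG3893 lie below 1 for each gene, and CG3635 departs from the others in HP1a, at 0.57, as CG8607 does in Mael, at 0.71.

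The targeted RNA was at 30.1% of control for piwi, 35.9% for armi, 10.3% for mael, 48.4% for CG3893 and 30.2% for the HP1a gene, each in its own knock-down. Depletion was strongest in Mael and weakest in CG3893, and its part in the levels of the 8 genes was not tested. Without replicate cultures, no spread was at hand against which to set the differences between knock-downs. Markers of the ovarian soma were present throughout, with a summed level of 632 to 1066 RPKM over 6 genes, 1 of them piwi itself: tj RNA was between 151 and 206 RPKM and fs(1)Yb RNA between 47.2 and 74.2 RPKM. Fas3, a follicle cell adhesion gene, had 41.5 RPKM in control cells and 108 RPKM in HP1a, and CadN, a cadherin gene, had 14.4 RPKM in control cells and 9.24 to 12.4 RPKM elsewhere. Summed levels of 7 germline markers were between 5.48 and 6.41 RPKM in 5 libraries and 12.8 RPKM in HP1a, where vas was at 6.38 against 1.56 RPKM in the control; AGO3 and rhi were between 0.96 and 2.29 RPKM. The germline markers nos and osk were at 0.12 RPKM or less in each library, and aub and bam reached at most 1.47 RPKM. Of the other lists, 5 hemocyte markers summed to between 18.3 and 29.5 RPKM, nearly all from srp and Pxn. srp had 8.83 RPKM in control cells and 21.6 RPKM in HP1a, and Pxn 9.36 and 7.83 RPKM. The hemocyte markers Hml, nimC1 and eater were at 0.094 RPKM or less in each library. The 4 genes listed for the fat body summed to between 4.56 and 15.4 RPKM, nearly all from the yolk protein genes Yp1 and Yp2, which follicle cells of the ovary also express. The other 2, Fbp1 and Lsp2, were at 0.22 RPKM or less in each library. The 3 neuron markers found, nearly all elav, summed to between 9.97 and 12.6 RPKM, and 4 muscle markers, nearly all Tm1 and Mhc, to between 107 and 172 RPKM. The control was the lowest of the 6 libraries for the germline, hemocyte, fat body and muscle sums, so these were higher in each knock-down, as the 8 genes were. In HP1a the germline, hemocyte, fat body and neuron sums were at their highest, and the muscle sum was highest in Piwi. Whether cells of these other types were present, and their part in the levels of the 8 genes, was not tested. In such bulk samples a change in the number of cells that hold an RNA and a change in RNA per cell cannot be told apart.

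Genes around the 8 members were compared to see whether the regions changed as a whole. Within 50 kb lay 122 other genes, of which 87 were compared. On the log2(RPKM + 1) scale, which understates changes of low genes, 80 of these were within 2-fold of control in each of the 5 knock-downs. Piwi and Mael each had 2 neighbours (2.3%) past 2-fold higher, Armi had 1 (1.15%), CG3893 had 0 and HP1a had 6 (6.9%). With counts this small, the shares lay near those of all genes in Piwi, Armi, Mael and CG3893, and HP1a was above its 3.85% by a few genes. The median change of the neighbours was between -0.08 and -0.03 in each knock-down. Averaged over the knock-downs, the lowest member, CG8607, had a log2 change of 1.97, and the highest neighbour, CG12214, had 1.42.

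Several genes at very short distance from a member had like levels in all 6 libraries. CG12096, whose locus ends 0.014 kb before that of CG34411, was between 35.8 and 39.1 RPKM in the 6 libraries, and CG2453, 3.93 kb on the other side, between 18.8 and 25.7 RPKM. growl, 0.244 kb from CG32944, was between 317 and 361 RPKM, and Spargel, 6.37 kb away, between 33.4 and 40.9. Exp6, 0.414 kb from CG32816, was between 30.03 and 35.5 RPKM. Next to CG8607, the gene CG8605 at 2.48 kb was between 20.5 and 24.9 RPKM.

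Beside CG3635, CG1832 at 6.22 kb was between 70.8 and 77.7 RPKM. On its other side, at 5.53 kb, the ionotropic receptor gene Ir40a had 6.01 RPKM in control cells, 5.84 to 7.46 RPKM in Piwi, Armi, Mael and CG3893, and 21.1 RPKM in HP1a. Next to CG11866, Pfk, the phosphofructokinase gene of glycolysis, was between 26.7 and 32.3 RPKM outside HP1a and at 17.4 RPKM in it. gem, on the other side of CG11866, was between 31.8 and 36.0 RPKM. Beside CG15209, Imp, an RNA-binding protein gene, was between 141 and 156 RPKM and CG17333 between 37.5 and 46.0 RPKM. Beside CG30076, Asx, a Polycomb group gene, was between 15.6 and 17.8 RPKM. LamC, a nuclear lamin gene 25.045 kb away, had 52.4 RPKM in control cells. It was higher in each knock-down, at 60.1, 65.2, 77.1, 64.5 and 101 RPKM for Piwi, Armi, Mael, CG3893 and HP1a. Its log2 changes ran from 0.19 in Piwi to 0.94 in HP1a.

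Neighbours past the limit were mostly so in HP1a. unc-13-4A, 35.0 kb from CG8607, was at 2.09 RPKM in the control, and 8.23, 6.91, 4.67, 3.44 and 5.29 RPKM when Piwi, Armi, Mael, CG3893 and HP1a were depleted. It was past 2-fold in Piwi, Armi and HP1a, and is the sole neighbour past 2-fold in 3 or more knock-downs. Near CG11866, KCNQ, a potassium channel gene at 24.4 kb, had 1.93 RPKM in the control, between 2.87 and 3.53 RPKM in the 4 other knock-downs and 36.8 RPKM in HP1a. CG12214, at 34.9 kb, was at 0.06 RPKM in the control. It had 1.40, 0.61, 0.96, 0.52 and 14.6 RPKM when Piwi, Armi, Mael, CG3893 and HP1a were depleted. This neighbour was thus higher than control in each knock-down, over a control value near 0, and past the limit in Piwi and HP1a. CG13375, 21.6 kb from CG32816, was at 0.09 RPKM in the control. It had 0.35, 0.13, 4.11, 0.74 and 1.25 RPKM in Piwi, Armi, Mael, CG3893 and HP1a, past the limit in Mael and HP1a. The 1 neighbour past 2-fold lower, CG31522, 25.3 kb from CG32944, went from 117 to 42.2 RPKM in HP1a, where 1.9% of all genes were past 2-fold lower.

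**Figure D4:**
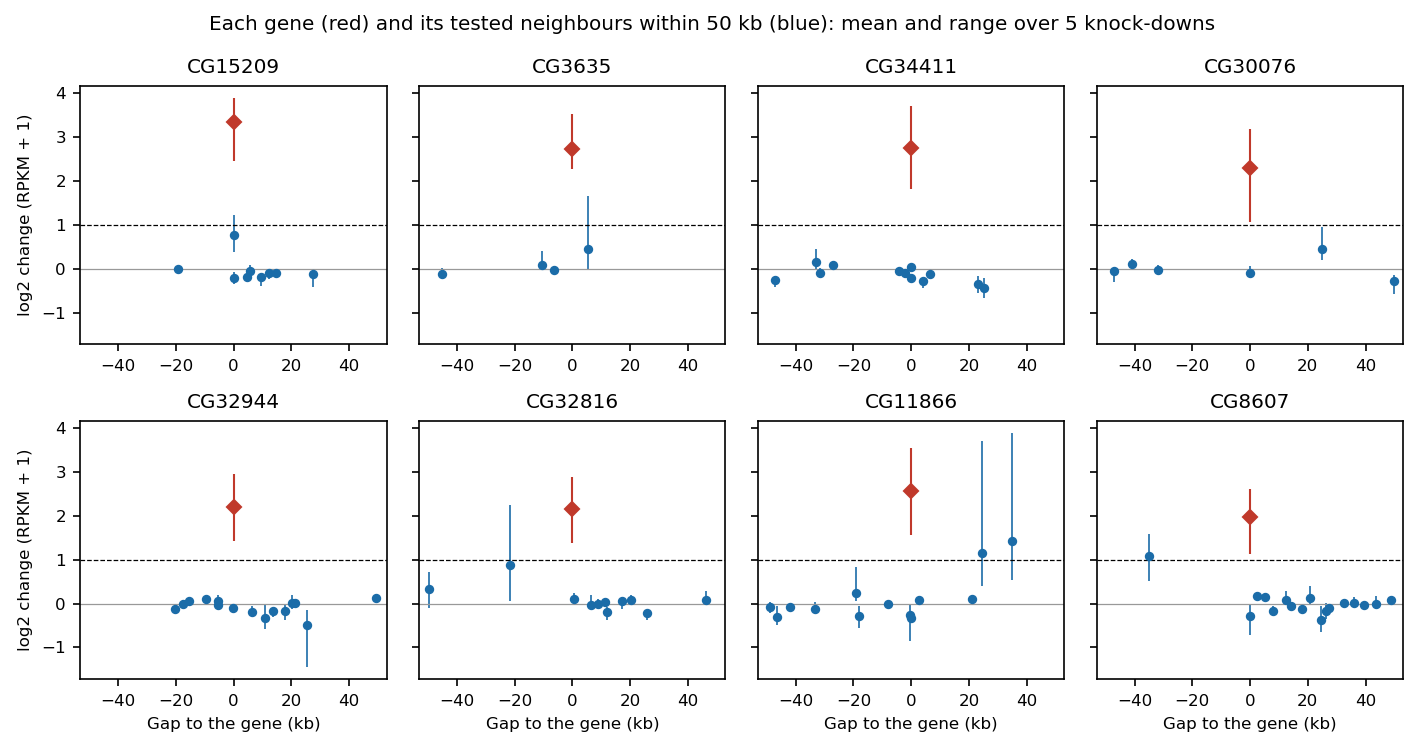
Mean log2 change over the 5 knock-downs, with bars for the lowest and highest, of each of the 8 genes (red) and of the compared genes within 50 kb (blue), by the gap between loci in kb. The members have means from 1.97 to 3.34, and most neighbours sit near 0.

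Some members share bases with other genes, and the files do not state whether strand was used in counting, so reads there cannot be assigned. CG15209 lies inside the locus of sbr, an mRNA export gene that was between 31.4 and 39.9 RPKM and lower in each knock-down than in the control. CG15209 also overlaps CG32669 by 299 bases. CG32669 was at 0.51 RPKM in the control, and 1.54, 1.01, 2.51, 0.96 and 2.25 RPKM when Piwi, Armi, Mael, CG3893 and HP1a were depleted, past 2-fold in Mael and HP1a. CG30076 lies inside the locus of ttv, a heparan sulfate synthesis gene, which was between 6.85 and 8.45 RPKM in the 6 libraries. The model of CG30076 in release 6 is longer, 2.22 kb against 1.32 kb in the files.

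CG11866 overlaps CCS by 265 bases and CG8607 overlaps RhoGEF4 by 51 bases. CCS, which encodes a copper chaperone, had 30.3 RPKM in control cells and 22.6 to 24.98 RPKM in the knock-downs. RhoGEF4 was at 32.5 RPKM in the control and 19.5 in HP1a. CG34411 spans CG32641, with 58.2 RPKM in control cells and 46.7 to 53.1 RPKM in the knock-downs. CG32816 spans or overlaps 9 genes, among them the pigment gene y and the proneural genes ac, sc, l(1)sc and ase. None of these 9 reached a mean of 1 RPKM, so they were not compared. CG3777, which shares 33629 bases with CG32816, had 0.018 RPKM in control cells, and 0.151, 0.083, 0.194, 0.088 and 0.149 RPKM when Piwi, Armi, Mael, CG3893 and HP1a were depleted. Cyp4g1, a cytochrome P450 gene with the highest mean of the 9, had 0.29 RPKM in control cells and 0.53 to 1.01 RPKM in the knock-downs. Both were thus higher than control in each knock-down, at levels under those of CG32816. The compared genes that overlap CG34411, CG30076, CG11866 and CG8607, which are CG32641, ttv, CCS and RhoGEF4, were past 2-fold higher in none of the 5.

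Likeness of pattern was measured with Pearson's r of log2(RPKM + 1) over the 6 libraries, given as a description, since these share the control and genes are not independent. Between the 8 genes, r ran from 0.791, for CG30076 and CG8607, to 0.995, for CG34411 and CG32944. Over the 5 knock-downs alone, which leaves out the shared control, r ran from 0.128, for CG3635 and CG8607, to 0.985, again for CG34411 and CG32944. CG34411 and CG11866 stood at 0.968 there and CG3635 and CG11866 at 0.415, over 5 single libraries without a spread against which to set that difference.

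Of 6626 other genes with a mean of at least 5 RPKM, between 11 (0.166%) and 68 (1.03%) had r above 0.95 with a given member. These r include the gap between control and knock-downs by which the members were chosen. Over the 5 knock-downs alone, a choice made after seeing the data, the genes named next had lower ranks in most cases. Their r ran from 0.908 for gus with CG3635 to 0.9996 for Shal with CG11866, and their ranks from 1 to 65. Only Shal with CG11866 (rank 1), Stat92E with CG30076 (rank 2) and CREG with CG32816 (rank 2) stayed among the 3 most alike. The r given next are over all 6 libraries. CG34411 was most like Ir7g, an ionotropic receptor gene (0.995), crp, a transcription factor gene (0.991), and Cyp12e1, a cytochrome P450 gene (0.988). CG32944 was most like Cyp12e1 (0.989), crp (0.986) and Atg5, an autophagy gene (0.986). CG11866 was most like Cul-5, a cullin gene (0.995), Shal, a potassium channel gene (0.994), and Snoo (0.992). A high r does not measure the size of a change. Cul-5 was at 17.9 RPKM in the control and 19.1 to 21.0 RPKM in the knock-downs, and crp at 34.6 and 37.0 to 40.4 RPKM. Shal, by contrast, was at 0.72 and 3.22 to 20.4 RPKM. CG30076 followed Stat92E, the transcription factor of JAK/STAT signalling (0.998), CG4983 (0.995) and Atg5 (0.994).

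CG15209 was most like CG9837 (0.993), CREG (0.987) and ex, a regulator of the Hippo pathway (0.986). CG32816 was most like CREG (0.994), CG6293 (0.990) and the ionotropic receptor gene Ir68a (0.988). CG3635 was most like CG6293 (0.985), gus (0.978) and Ge-1 (0.978), the last an mRNA decapping factor gene. CG8607 was most like yuri (0.987), CG9669 (0.984) and CG16947 (0.982).

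Of the TE families, 87 averaged 5 RPKM or more, and among these the LTR retrotransposon TABOR was the family most like CG34411 (r = 0.996), CG32944 (0.992) and CG30076 (0.985). TABOR RNA was at 3.65 RPKM in the control, and 56.3, 19.6, 118, 29.2 and 123 RPKM when Piwi, Armi, Mael, CG3893 and HP1a were depleted, so Armi was its lowest knock-down too. Without the control, TABOR had r of 0.989 with CG34411 and 0.975 with CG32944, ranking 1 for both, and 0.962 with CG30076, ranking 2 behind MDG3. The second family was MDG3 for CG34411 (0.993) and CG30076 (0.98) and DOC for CG32944 (0.984). CG15209 was most like GYPSY (0.985), with 34.7 RPKM in control cells and 465 to 1125 RPKM in the knock-downs, and MDG3 (0.975). CG3635 was most like MDG1 (0.957) and DOC6 (0.955), and CG32816 most like DM412 (0.989) and DOC6 (0.976). MDG1 RNA was at 5.45 RPKM in the control, and 853, 116, 1628, 742 and 459 RPKM when Piwi, Armi, Mael, CG3893 and HP1a were depleted, so that HP1a lay below Piwi, as for CG3635. Without the control its r with CG3635 was 0.761, ranking 8 of the 87 families.

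CG11866 was most like the DNA transposon PROTOP_A (0.998) and DMCR1A (0.992). CG8607 was most like Gypsy2 (0.964) and STALKER2 (0.954). Gypsy2 RNA was at 3.77 RPKM in the control, and 25.7, 18.7, 12.7, 11.6 and 41.2 RPKM when Piwi, Armi, Mael, CG3893 and HP1a were depleted, which is the order of CG8607 save for a tie of Armi and Mael in the gene. Without the control, r was 0.895 for Gypsy2 with CG8607, 0.994 for PROTOP_A with CG11866, 0.924 for GYPSY with CG15209 and 0.959 for DM412 with CG32816, ranking 2, 2, 3 and 1. Between 2 and 12 of the 87 families had r above 0.95 with a given member.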

How the data were processed

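Poly(A) RNA of 6 OSC cultures grown at 26 °C was sequenced, 1 library per group. The authors deposited RNA levels as RPKM, per the file headers, for genes at dm3 loci and for 177 TE families. Cufflinks 2.0.2, TopHat2 2.0.7, Bowtie2 2.0.0 and cutadapt are listed in the submitters' processing notes. Not given in the sources used here are the annotation, the strand setting and whether locus starts count from 0 or 1. The deposited RNA polymerase II values have no genes and were not used.

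Rows were summed by gene name (161 repeats among 14145 entries), with Python 3.11.15, numpy 2.4.6 and pandas 2.3.3. Of 13984 names, 13904 matched RefSeq release 6, which served for names and gene lengths only. Changes are log2((knock-down + 1)/(control + 1)); ratios have no pseudocount. Genes averaging 1 RPKM or more were compared, at a 2-fold limit in place of a test. Steps of low values gave whole reads, within 0.01 reads, for 76.6% of 3095 low entries, with 201 bases left off each transcript; totals follow from this best fit.

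Neighbours are genes whose loci lie within 50 kb of a member. Named are the members, the nearest compared gene on each side, neighbours past 2-fold in at least 3 knock-downs, the 3 genes and 2 TE families most like each member, the 5 targeted genes and up to 2 genes per list with the largest mean change. Other neighbours, overlapping genes and list genes outside this rule (vas, tj and fs(1)Yb among them) are named after their values were seen. The members and lists were chosen with earlier results of these data known. Alternatives were the pseudocount, the filter, library scaling, the handling of repeats and the window.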

Additional observations from a re-analysis of the deposited data

How the results depend on the processing

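With 1 library per group, no result here can be separated from variation between cultures, and low control values limit the ratios of CG32944, CG34411, CG11866 and CG32816. No paired analysis was possible because each group holds 1 library. Under median ratio scaling, each of the 40 member changes stayed past 2-fold, from 1.08 to 3.96. That scaling moved the median change of all genes by less than 0.1. Keeping the largest row per gene left the members unchanged, since each has 1 row. A pseudocount of 0.1 RPKM can only enlarge a rise, and gave changes from 1.15 to 5.10. Neither of these settings could have brought a member under the limit. With a pseudocount of 5 RPKM, 10 of the 40 were under the limit, the lowest at 0.45, and 0 changed sign; members past 2-fold were then 3 in Armi, 4 in CG3893 and 3 in every knock-down. Of the 8, 7 have a mean of at least 5 RPKM.

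Counts over all genes moved with the pseudocount. At 0.1 RPKM they were 134 in Armi, 141 in CG3893 and 82 in all 5 knock-downs, and at 5 RPKM 52, 34, 92, 35 and 142 in Piwi, Armi, Mael, CG3893 and HP1a and 9 in all 5. With a mean of at least 5 RPKM they were 74 in Piwi, 49 in Armi, 104 in Mael and 162 in HP1a.

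At a pseudocount of 0.1 RPKM, 4, 2, 4 and 2 of the 87 neighbours were past 2-fold higher in Piwi, Armi, Mael and CG3893. Of all 7690 genes, 168, 134, 220 and 141 were past it there. At 5 RPKM the neighbours past 2-fold were 0 in Piwi, Armi and Mael and 3 in HP1a. With a mean of at least 5 RPKM, where 78 were compared, they were 1 in Piwi, 0 in Mael and 3 in HP1a. Within 20 kb, where 47 were compared, they were 0 in Piwi and Armi, 1 in Mael and 2 in HP1a. Without the window of CG32816, a choice made after seeing the data, 1 of 76 was left in Mael.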
